A study of Mus musculus with 18 samples.

Results

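The genes described here are 9 parts of the pathway by which acetylcholine slows the heart: the muscarinic receptor gene Chrm2, the G-protein subunit genes Gnai2, Gnb1, Gnb3, Gnb5 and Gng2, and the regulators of G-protein signalling Rgs4, Rgs5 and Rgs6. They were taken by name from the 28537 genes to which estimated counts could be summed, and all 9 passed the filter on low counts that kept 16600 genes for testing. The members were chosen by gene name with results of these data known, among them the difference in Rgs6 counts between double-knockout and WT ventricles. That difference is therefore given below as a description with no test, and the p-values of the other members are no independent support.

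The libraries were made from polyA RNA of mouse E14.5 ventricles. Irx3 and Irx4 encode homeodomain transcription factors of the Iroquois family, and the study set ventricles lacking either or both beside WT. The genotypes were Irx3KO_Irx4KO (both genes mutated, 6 libraries), Irx3KO (3 libraries), Irx4KO (3 libraries), Irx3het_Irx4het (1 mutated copy of each gene, 3 libraries) and WT (3 libraries). How the alleles were made, which part of Irx4 they remove, the strain, and whether a library held 1 embryo or a pool were not stated by the labels. The p-values rest on how far libraries of a genotype differ, and that spread may be technical. Where groups of libraries are said below not to overlap, the share of all genes that also did not overlap was not counted. With 3 libraries a group, such statements only describe the values.

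The libraries fell into a pair of sets that differed technically. Set 1 held Irx3KO_Irx4KO 5, 7 and 10 with WT 1, 2 and 3, and set 2 held Irx3KO_Irx4KO 2, 3 and 4 with all Irx3KO, Irx4KO and Irx3het_Irx4het libraries. A library's deviation from the mean of all libraries correlated with transcript length across 11250 genes at a Spearman rho of -0.580 to -0.354 in set 1 and of 0.060 to 0.575 in set 2, and 18.8% of all genes tested differed between the Irx3KO_Irx4KO libraries of set 1 and those of set 2. Genotypes were therefore compared inside a set. The trend also differed inside set 2: rho was 0.060, 0.335 and 0.155 in Irx3KO_Irx4KO 2, 3 and 4, below the 0.336 to 0.575 of every other library of the set. The part of this trend in the set 2 comparisons of Irx3KO_Irx4KO was not tested. The cause of the difference between sets is not given in the labels. Estimated counts per library ran from 26721576 to 45946741. Irx3 had 2.58 to 4.33 CPM (counts scaled to the library's total) in the 9 libraries labelled Irx3KO or Irx3KO_Irx4KO, 12.8 to 13.3 CPM in Irx3het_Irx4het, and 22.1 to 28.5 CPM in Irx4KO and WT. Irx4 went the other way, with 216 to 282 CPM in the libraries labelled Irx4KO or Irx3KO_Irx4KO, 176 to 191 CPM in Irx3het_Irx4het, 135 to 158 CPM in Irx3KO and 78.8 to 126 CPM in WT, so its whole-gene count does not check the Irx4 labels. Ventricular muscle markers summed to between 20488 and 25121 CPM in every library.

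In this pathway the vagus nerve releases acetylcholine, which acts on the M2 receptor encoded by Chrm2. The receptor loads GTP onto an inhibitory alpha subunit (Gi or Go), which holds down adenylyl cyclase, and frees a beta-gamma dimer, which opens the potassium channel built from the Kcnj3 and Kcnj5 products. RGS proteins end the signal by speeding GTP hydrolysis on the alpha subunit. Rgs6 belongs to the R7 class of RGS proteins, which are stable only in a complex with the atypical beta subunit Gnb5, and loss of Rgs6 in mice is known to exaggerate the slowing of the heart by muscarinic agonists.

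Among the 9 genes, Gng2 rose in double-knockout ventricles against WT and against Irx3KO, and in ventricles with both copies of Irx4 mutated by label against the rest of set 2. Gnb3 rose in the set 2 comparisons of double knockouts with Irx3KO and Irx3het_Irx4het and of the pooled Irx4 mutants. Rgs6 had its highest mean in double knockouts in both sets. The receptor, the alpha subunit Gnai2, the beta subunit Gnb1 and the R7 partner Gnb5 did not pass the test in any comparison of genotypes inside a set. Rgs4 passed no comparison of genotypes but was lower in set 1 than in set 2 within the double-knockout genotype.

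The coding sequence of Gng2 is shown because Gng2 is the member that passed the test in both sets in the main fit. Those passes depended on the settings used, as given below. It was read from transcript Gng2-204 of GENCODE M21 (GRCm38, chr14:19875807-19891372, minus strand), and is written 5′ to 3′ along the coding strand over its 2 coding exons. Its 216 bases hold 71 codons and a stop codon, and the capitals mark the last 4 codons, which encode the C-terminal box where a gamma subunit receives the lipid that anchors the dimer to the membrane.
Gng2: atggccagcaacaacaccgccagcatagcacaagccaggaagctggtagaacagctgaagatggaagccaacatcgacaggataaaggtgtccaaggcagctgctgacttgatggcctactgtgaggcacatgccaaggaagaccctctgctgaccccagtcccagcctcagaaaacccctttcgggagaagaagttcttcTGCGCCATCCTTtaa
Gng2-204 was also the transcript that carried the gene: it took 96.3% to 99.7% of the estimated counts of Gng2 in every library.

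Levels between genes can be compared only per length, for which the deposited TPM, which divide by transcript length, were summed per gene. Gnb1, which encodes a beta subunit, averaged 292 TPM over the 18 libraries, and Gnai2, an inhibitory alpha subunit, averaged 248 TPM. The other members stood about an order of magnitude lower: Gng2 averaged 31.3 TPM, Gnb5 28.1 TPM, Rgs5 23.2 TPM and Chrm2 13.6 TPM. Gnb3 averaged 6.02 TPM, Rgs6 4.33 TPM and Rgs4 2.89 TPM, so Gnb3, Rgs6 and Rgs4 were the scarcest of the 9. The steadiest genes were also the most abundant. The coefficient of variation of CPM among libraries of the same genotype and set was 2.55% for Gnb1, 4.08% for Gnai2, 7.15% for Gng2 and 8.66% for Gnb5. It was 13.5% for Gnb3, 13.6% for Chrm2, 18.6% for Rgs6, 27.2% for Rgs5 and 31.4% for Rgs4. The counts behind the scarce genes were modest, at 70 to 385 estimated counts per library for Rgs4, 114 to 355 for Gnb3 and 128 to 405 for Rgs6.

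**Figure D1:**
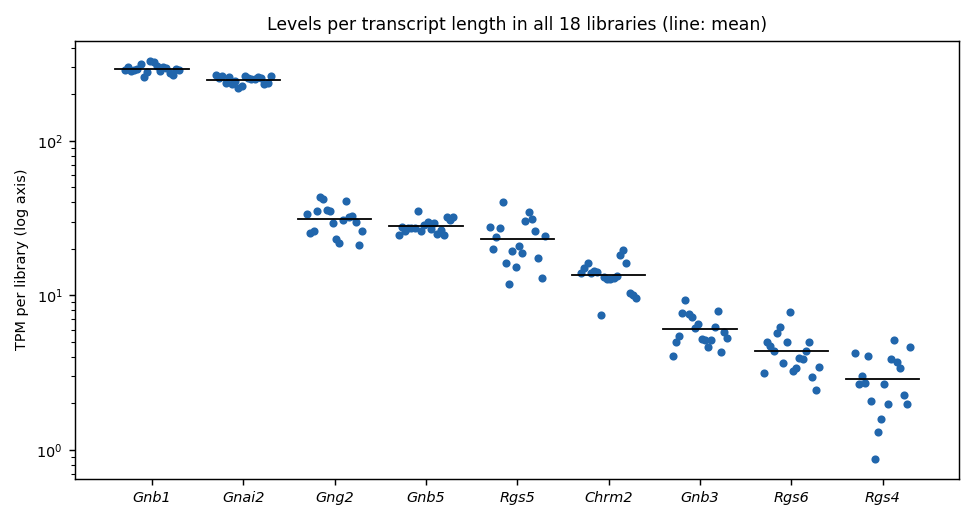
Level of each gene in TPM (log axis) in each of the 18 libraries (dots), with the mean over libraries as a line, genes ordered by that mean. Gnb1 (mean 292 TPM) and Gnai2 (248 TPM) stand apart from the other 7 genes, and Rgs4 (2.89 TPM) is lowest with the widest scatter.

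Chrm2 (chromosome 6, bases 36388084 to 36528414, plus strand, GRCm38 as are all positions here), the receptor, had 31.1, 56.7 and 51.0 CPM in Irx3KO_Irx4KO 5, 7 and 10, against 42.9, 39.9 and 38.0 CPM in WT 1, 2 and 3. Library 5 lay below every WT library and the other Irx3KO_Irx4KO libraries of the set lay above them. The log2 fold change was 0.20 ± 0.15 (SE, n = 3 against 3 libraries), and it did not pass edgeR's quasi-likelihood test after Benjamini-Hochberg adjustment over the 16600 genes (adjusted p = 0.61). The value depended on which mutant library was left out. It was 0.42 (adjusted p = 0.019) without Irx3KO_Irx4KO 5, 0.03 (adjusted p = 0.96) without Irx3KO_Irx4KO 7 and 0.13 (adjusted p = 0.75) without Irx3KO_Irx4KO 10. In set 2, Chrm2 had 58.4, 55.1 and 53.3 CPM in Irx3KO_Irx4KO 2, 3 and 4, 48.1, 49.5 and 53.7 CPM in Irx3KO 1, 2 and 4, 67.9, 77.8 and 64.8 CPM in Irx4KO 2, 3 and 4, and 52.9, 59.7 and 62.8 CPM in Irx3het_Irx4het 2, 3 and 4. The order of the means was Irx4KO (70.2 ± 6.79 CPM), Irx3het_Irx4het (58.5 ± 5.05 CPM), Irx3KO_Irx4KO (55.6 ± 2.55 CPM) and Irx3KO (50.4 ± 2.95 CPM; SD, n = 3 each). Every Irx4KO library lay above every library of the other genotypes of the set, while the last 3 genotypes in that order overlapped. No step between neighbours in the order passed the test, and the widest gap, Irx3KO against Irx4KO, was -0.48 ± 0.15 (SE) on the log2 scale with an adjusted p of 0.28. That gap did pass when only set 2 libraries were fitted (log2 fold change -0.47, adjusted p = 0.013) and when Irx3KO_Irx4KO 5 was left out of the fit (-0.48, adjusted p = 0.010), although neither genotype of the gap includes that library. The other muscarinic receptor genes were near the limit of the data: Chrm1 averaged 0.874 to 1.02 CPM and Chrm3 0.428 to 0.766 CPM over the genotypes and sets, and Chrm4 and Chrm5 failed the filter on low counts.

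Gnai2 (chromosome 9, 107614125 to 107635367, minus strand) had 331 to 388 CPM over all 18 libraries, and its means by genotype and set ran from 349 to 368 CPM. Its log2 fold change was 0.00 in Irx3KO_Irx4KO against WT, with a 95% confidence interval of -0.12 to 0.12. Gnb1 (chromosome 4, 155491361 to 155559269, plus strand), the most abundant member per transcript length, was as even. Its means by genotype and set ran from 461 to 487 CPM, and its log2 fold change in Irx3KO_Irx4KO against WT was 0.08 with an interval of -0.03 to 0.18, although the 3 mutant libraries (478 to 501 CPM) lay just above the 3 WT libraries (453 to 475 CPM). In the comparison of homozygous Irx4 mutants with the other set 2 libraries, Gnai2 differed by -0.02 (interval -0.10 to 0.07) and Gnb1 by -0.01 (interval -0.08 to 0.06). Only 1 of the 10 Gnai2 transcripts in GENCODE M21 was counted, at 2177 bases where GENCODE M21 has 2215.

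Gng2 (chromosome 14, 19872559 to 19977627, minus strand) encodes a gamma subunit that pairs with the Gnb1 product in many cells. It had 68.8, 77.3 and 70.1 CPM in Irx3KO_Irx4KO 5, 7 and 10, against 54.0, 49.7 and 60.0 CPM in WT 1, 2 and 3. The groups did not overlap, and Gng2 rose by a log2 fold change of 0.40 ± 0.081 (SE; adjusted p = 0.019), which is 1.32-fold. Of all genes tested, 1.44% passed in this comparison, and of the 8 members other than Rgs6, whose difference here was known when the list was made, 1 did. For Gng2 the adjusted p was 0.067 without Irx3KO_Irx4KO 7, 0.077 without WT 1, 0.078 without WT 2 and 0.24 when only set 1 libraries were fitted, with log2 fold changes of 0.34 to 0.40 in these fits.

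In set 2 the level of Gng2 fell into 3 bands. It had 80.5, 90.5 and 74.5 CPM in Irx3KO_Irx4KO 2, 3 and 4 and 82.0, 78.7 and 76.1 CPM in Irx4KO 2, 3 and 4. It had 68.9, 64.2 and 65.6 CPM in Irx3het_Irx4het 2, 3 and 4, and 50.4, 52.9 and 57.8 CPM in Irx3KO 1, 2 and 4. Libraries with both copies of Irx4 mutated by label were highest, those with 1 mutated copy lay between, and those with no mutated copy of Irx4 were lowest, with no overlap between the bands on the CPM scale. Irx3het_Irx4het also carries 1 mutated copy of Irx3, so the middle band differs from both others in more than Irx4. Gng2 rose in Irx3KO_Irx4KO against Irx3KO by 0.61 ± 0.081 (SE; log2, adjusted p = 0.003), which is 1.52-fold, and in this comparison 0.38% of all genes and 2 of the 9 members passed. It was lower in Irx3KO than in Irx4KO, with a log2 fold change of -0.56 ± 0.081 (SE, adjusted p = 0.0058), and there 0.289% of all genes and 1 of the 9 members passed. The adjusted p of that difference was 0.073 with the replicate number as a block. The steps between neighbouring bands did not pass: the log2 fold change was 0.30 ± 0.081 (adjusted p = 0.17) in Irx3KO_Irx4KO against Irx3het_Irx4het, 0.25 ± 0.081 (adjusted p = 0.64) in Irx4KO against Irx3het_Irx4het and -0.30 ± 0.081 (adjusted p = 0.93) in Irx3KO against Irx3het_Irx4het. Irx3KO_Irx4KO and Irx4KO, which differ by label only in Irx3, stood 0.05 ± 0.081 apart (95% confidence interval -0.12 to 0.22).

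Pooling set 2 by Irx4 put 6 homozygous Irx4 mutant libraries (Irx3KO_Irx4KO and Irx4KO) beside 6 libraries that carried an unmutated copy (Irx3KO and Irx3het_Irx4het). These libraries are shared with the set 2 comparisons above but not with the comparison with WT. Gng2 ran from 74.5 to 90.5 CPM (median 79.6) in the homozygous mutants and from 50.4 to 68.9 CPM (median 61.0) in the others. It rose by 0.43 ± 0.057 on the log2 scale (SE; adjusted p = 0.0014). In this pooled comparison 0.813% of all genes passed, and 2 of the 9 members, Gng2 and Gnb3. Pooling by Irx3 instead gave -0.13 ± 0.057 for Gng2 (adjusted p = 0.66). On the TPM scale the bands were less clean. Gng2 had 29.4 to 35.8 TPM in Irx3KO_Irx4KO against 21.0 to 29.9 TPM in WT of set 1. In set 2 it had 35.0 to 43.2 TPM in Irx3KO_Irx4KO, 21.7 to 30.9 TPM in Irx3KO, 32.3 to 40.7 TPM in Irx4KO and 25.4 to 33.8 TPM in Irx3het_Irx4het, so that neighbouring bands overlapped. With counts rebuilt from TPM the log2 fold change was 0.47 against WT (adjusted p = 0.25) and 0.53 for the pooled Irx4 comparison (adjusted p = 0.066). Gng2 also lost its calls in Irx3KO_Irx4KO against Irx3KO and in Irx3KO against Irx4KO with these counts. An antisense gene, Gm48283, shares 897 exonic bases with Gng2 in GENCODE M21 and has no count of its own in the files. The libraries were made with a directional kit, but the labels do not say whether strand was used in counting, so its reads cannot be told apart from those of Gng2.

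**Figure D2:**
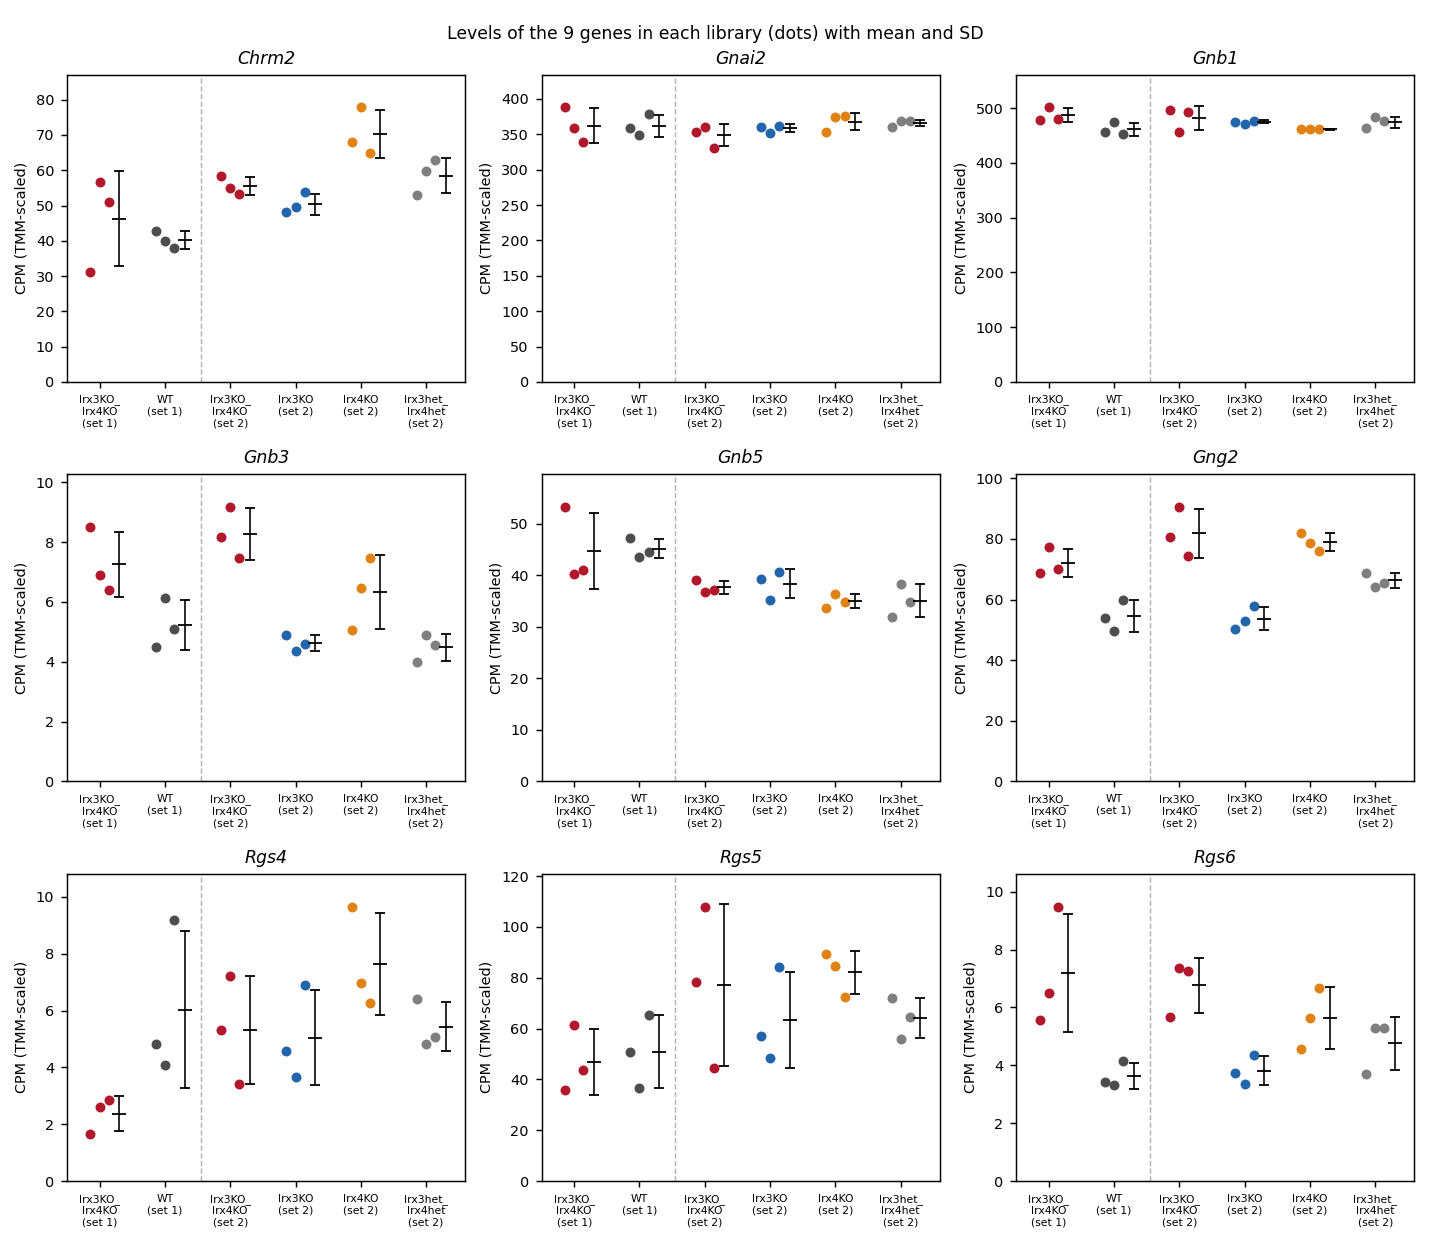
CPM of each of the 9 genes in every library (dots, 3 per genotype and set) with mean and SD (bars beside the dots); the dashed line parts set 1 from set 2. In set 1, Gng2 is at least 68.8 CPM in Irx3KO_Irx4KO and at most 60.0 CPM in WT. In set 2 it is at least 74.5 CPM in Irx3KO_Irx4KO and Irx4KO, 64.2 to 68.9 CPM in Irx3het_Irx4het and at most 57.8 CPM in Irx3KO. Gnai2 and Gnb1 are level throughout.

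Gnb3 (chromosome 6, 124834240 to 124840275, minus strand) encodes a beta subunit best known from retinal cone and bipolar cells, and its transcripts were scarce in ventricle. It had 8.49, 6.89 and 6.40 CPM in Irx3KO_Irx4KO 5, 7 and 10, against 4.49, 6.14 and 5.08 CPM in WT 1, 2 and 3. All mutant libraries lay above all WT libraries, by a log2 fold change of 0.47 ± 0.16 (SE) that did not pass the test (adjusted p = 0.18). In set 2 it had 8.18, 9.17 and 7.46 CPM in Irx3KO_Irx4KO 2, 3 and 4, 4.90, 4.36 and 4.60 CPM in Irx3KO 1, 2 and 4, 5.05, 6.48 and 7.47 CPM in Irx4KO 2, 3 and 4, and 3.98, 4.89 and 4.56 CPM in Irx3het_Irx4het 2, 3 and 4. The double knockout was highest, Irx4KO came next and touched it in 1 library, and Irx3KO and Irx3het_Irx4het could not be separated (log2 fold change 0.05 ± 0.16 in Irx3KO against Irx3het_Irx4het). Pooled by Irx4, Gnb3 ran from 5.05 to 9.17 CPM in the homozygous mutants and from 3.98 to 4.90 CPM in the others, and rose by 0.67 ± 0.11 (SE; log2, adjusted p = 0.0084), which is 1.59-fold. This call was kept under every alternative setting and with every library left out in turn (adjusted p at most 0.037). Gnb3 also rose in Irx3KO_Irx4KO against Irx3KO, by 0.84 ± 0.16 (adjusted p = 0.03). That call was lost without any 1 of the 3 Irx3KO_Irx4KO libraries of set 2, the 3 Irx3KO libraries or Irx4KO 3 (adjusted p 0.05 to 0.16), and with the replicate number as a block (adjusted p = 0.13). Against Irx3het_Irx4het, the rise in Irx3KO_Irx4KO was 0.89 ± 0.16 (adjusted p = 0.049), where 0.0904% of all genes and 1 of the 9 members passed. It sat at the threshold, and the adjusted p was between 0.053 and 0.16 in 14 of the 18 fits with 1 library left out. Irx4KO and Irx3KO_Irx4KO differed by 0.39 ± 0.16 in favour of the double knockout (adjusted p = 0.85).

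Much of the Gnb3 count fell on a transcript annotated as retaining an intron. The coding transcript Gnb3-201 took on average 52.5% of the counts of the gene in Irx3KO_Irx4KO and 40.9% in WT in set 1. In set 2 it took 51.6% in Irx3KO_Irx4KO, 52.0% in Irx3KO, 52.7% in Irx4KO and 61.8% in Irx3het_Irx4het. Its own level was 3.89 ± 1.47 CPM in Irx3KO_Irx4KO and 2.17 ± 0.661 CPM in WT, and 4.35 ± 1.73 CPM in Irx3KO_Irx4KO, 2.41 ± 0.559 CPM in Irx3KO, 3.29 ± 0.414 CPM in Irx4KO and 2.77 ± 0.377 CPM in Irx3het_Irx4het of set 2 (SD, n = 3 each). The intron-retaining Gnb3-202 had 2.87 ± 0.247 CPM in Irx3KO_Irx4KO and 2.71 ± 0.274 CPM in WT, and 3.35 ± 0.902, 1.78 ± 0.317, 2.54 ± 0.785 and 1.20 ± 0.297 CPM in Irx3KO_Irx4KO, Irx3KO, Irx4KO and Irx3het_Irx4het of set 2 (SD, n = 3 each). In set 2 both forms had their highest mean in the double knockout.

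Gnb5 (chromosome 9, 75306288 to 75345876, plus strand), the obligate partner of the R7 regulators, had 53.3, 40.2 and 41.0 CPM in Irx3KO_Irx4KO 5, 7 and 10, against 47.3, 43.6 and 44.6 CPM in WT 1, 2 and 3, a log2 fold change of -0.01 ± 0.095 (SE; 95% confidence interval -0.21 to 0.19, adjusted p = 0.98). Library 5 was higher, and libraries 7 and 10 lower, than every WT library. In set 2 its means ran from 35.0 ± 1.37 CPM in Irx4KO to 38.4 ± 2.83 CPM in Irx3KO (SD, n = 3 each), and the pooled Irx4 comparison gave -0.02 ± 0.068 (95% confidence interval -0.16 to 0.13). Only 1 of the 8 Gnb5 transcripts in GENCODE M21 was counted, at 2095 bases where GENCODE M21 has 1188. Gnb5 shares 248 exonic bases with the antisense gene Gm19531, and Chrm2 shares 142 with the antisense gene 9330158H04Rik. Both have the same limit on strand as Gng2.

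Rgs6 (chromosome 12, 82588292 to 83162056, plus strand) had 5.57, 6.51 and 9.49 CPM in Irx3KO_Irx4KO 5, 7 and 10, against 3.42, 3.32 and 4.15 CPM in WT 1, 2 and 3. All mutant libraries lay above all WT libraries, and the fitted log2 fold change was 0.99 ± 0.21 (SE), or 1.98-fold. Library 10 was the highest, and without it the log2 fold change was 0.74. In set 2, Rgs6 had 5.68, 7.37 and 7.26 CPM in Irx3KO_Irx4KO 2, 3 and 4, 3.74, 3.35 and 4.35 CPM in Irx3KO 1, 2 and 4, 4.55, 5.64 and 6.69 CPM in Irx4KO 2, 3 and 4, and 3.70, 5.29 and 5.28 CPM in Irx3het_Irx4het 2, 3 and 4. The order of the means was Irx3KO_Irx4KO (6.77 ± 0.945 CPM), Irx4KO (5.63 ± 1.07 CPM), Irx3het_Irx4het (4.76 ± 0.917 CPM) and Irx3KO (3.81 ± 0.504 CPM; SD, n = 3 each), and each neighbour in this order overlapped the next. The ends of the order did not overlap, and Irx3KO_Irx4KO exceeded Irx3KO by 0.83 ± 0.21 on the log2 scale. This did not pass edgeR's test (adjusted p = 0.13) and passed DESeq2's (adjusted p = 0.022). Pooled by Irx4, the difference was 0.54 ± 0.15 (SE), with an adjusted p of 0.11 in edgeR and 0.035 in DESeq2. Pooled by Irx3, it was -0.02 ± 0.15 (95% confidence interval -0.33 to 0.29).

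Rgs6-202 carried most of the gene's counts, with 87.4% in Irx3KO_Irx4KO and 84.4% in WT of set 1, and 88.9%, 78.2%, 90.6% and 81.6% in Irx3KO_Irx4KO, Irx3KO, Irx4KO and Irx3het_Irx4het of set 2. Rgs6-202 by itself had 5.35 to 7.80 CPM in Irx3KO_Irx4KO and 2.56 to 3.49 CPM in WT of set 1. The files count 2 transcripts of Rgs6 where GENCODE M21 lists 22, and their lengths in the files differ from those in GENCODE M21, so reads of other forms of Rgs6 are counted only as far as they match these 2. Rgs6 shares 77 exonic bases with the antisense gene Gm29530, with the same limit on strand as for Gng2. Among the other R7 regulators, Rgs11 averaged 8.18 to 12.6 CPM and Rgs9 2.88 to 4.08 CPM over the genotypes and sets, and Rgs7 0.0592 to 0.556 CPM. None of them passed in a comparison of genotypes within a set. The membrane anchor gene of the R7 complex, Rgs7bp, averaged 19.5 to 25.0 CPM and differed by -0.27 ± 0.17 in Irx3KO_Irx4KO against WT (adjusted p = 0.52) and by 0.06 ± 0.12 in the pooled Irx4 comparison (adjusted p = 0.93).

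Atrial markers differed in some of these comparisons and not in others. The 8 markers of the atrial list (all detected) summed to 891 to 926 CPM in Irx3KO_Irx4KO against 455 to 675 CPM in WT of set 1. In set 2 they summed to 676 to 729 CPM in Irx3KO_Irx4KO, 501 to 551 CPM in Irx3KO, 559 to 596 CPM in Irx4KO and 410 to 536 CPM in Irx3het_Irx4het. In Irx3KO_Irx4KO against WT, 3 of the 8 rose (Myl7, Stard10 and Mybphl), and in the pooled Irx4 comparison 1 did (Stard10). Most of the sum was Myl7, at 244 to 711 CPM over the libraries. Of the 8 markers 4 had a positive fold change in Irx3KO_Irx4KO against Irx3KO, where Gng2 and Gnb3 rose, with a median log2 fold change of 0.11, 4 unadjusted p under 0.05 in edgeR and 0 adjusted ones. In Irx3KO against Irx4KO, where Gng2 was lower, the median was -0.06, with 2 unadjusted p under 0.05 and 0 adjusted ones. Epicardial and fibroblast markers had a positive fold change in 8 of 8 in the pooled Irx4 comparison (median 0.14, 1 unadjusted p under 0.05 and 0 adjusted), beside a median of 0.17 for the atrial list. Erythroid markers had a positive fold change in 1 of 8 in Irx3KO_Irx4KO against WT (median -0.63, 2 unadjusted p under 0.05 and 0 adjusted), with sums of 2392 to 4145 CPM in Irx3KO_Irx4KO and 3198 to 6652 CPM in WT. The pacemaker and nodal list summed to 110 to 147 CPM and the neuron and neural crest list to at most 23.5 CPM over all libraries. Of 8 tested neuron and neural crest markers, 6 had a positive fold change in the pooled Irx4 comparison. Their median there was 0.37, with 2 unadjusted p under 0.05 in edgeR and 0 adjusted ones. Of 7 pacemaker and nodal markers, 1 was lower in Irx3KO_Irx4KO against WT, where 4 had a positive fold change (median 0.08), and 0 passed in the pooled Irx4 comparison. Of 8 macrophage and leukocyte markers, 1 was lower in Irx3KO_Irx4KO against WT, against Irx3KO and in the pooled Irx4 comparison. Those with a positive fold change there numbered 0, 3 and 5. In bulk ventricle, more cells of a type and more RNA per cell cannot be told apart, and the part of these marker lists in the levels of Gng2, Gnb3 and Rgs6 was not tested.

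Rgs4 and Rgs5 encode small regulators that act on Gi and Gq alpha subunits, and Rgs5 is a known marker of pericytes. The genes are neighbours on chromosome 1, Rgs5 at 169655501 to 169695813 on the plus strand and Rgs4 at 169741477 to 169747642 on the minus strand, 45663 bases apart. Rgs4 had 1.67, 2.59 and 2.84 CPM in Irx3KO_Irx4KO 5, 7 and 10, against 4.81, 4.09 and 9.18 CPM in WT 1, 2 and 3. All mutant libraries lay below all WT libraries, by a log2 fold change of -1.35 ± 0.34 (SE) with an adjusted p of 0.063 in edgeR and 0.0031 in DESeq2. The adjusted p in edgeR was 0.046 without WT 2 and 0.048 without Irx3KO_Irx4KO 4. In set 2 the genotypes overlapped. Rgs4 had 5.32, 7.21 and 3.41 CPM in Irx3KO_Irx4KO 2, 3 and 4, 4.58, 3.66 and 6.90 CPM in Irx3KO 1, 2 and 4, 9.66, 6.98 and 6.28 CPM in Irx4KO 2, 3 and 4, and 6.41, 4.81 and 5.08 CPM in Irx3het_Irx4het 2, 3 and 4. The pooled Irx4 comparison gave 0.28 ± 0.23 (adjusted p = 0.77). Within the double knockout itself Rgs4 was lower in set 1 than in set 2, by a log2 fold change of -1.17 ± 0.34 (adjusted p = 0.027), the 1 member of 9 to pass where 18.8% of all genes did. Without Irx3KO_Irx4KO 2, 3, 5 or 7 that adjusted p was 0.05 to 0.13. The transcript Rgs4-202 had counts in 1 library alone, Irx3het_Irx4het 3, where it took 45.8% of the gene.

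Rgs5 had 35.8, 61.2 and 43.5 CPM in Irx3KO_Irx4KO 5, 7 and 10, against 50.6, 36.6 and 65.3 CPM in WT 1, 2 and 3, and the groups overlapped (log2 fold change -0.12 ± 0.31, adjusted p = 0.92). In set 2 it ran from 44.5 to 108 CPM in Irx3KO_Irx4KO, from 48.6 to 84.4 CPM in Irx3KO, from 72.5 to 89.2 CPM in Irx4KO and from 56.0 to 71.9 CPM in Irx3het_Irx4het. Irx4KO lay above Irx3het_Irx4het with no overlap, every other pair of genotypes of the set overlapped, and the pooled Irx4 comparison gave 0.32 ± 0.22 (SE; adjusted p = 0.70). Pericyte and smooth muscle markers summed to 1504 to 2320 CPM in Irx3KO_Irx4KO and 1825 to 2110 CPM in WT of set 1, where 3 of the 10 had an unadjusted p under 0.05 in edgeR and 0 an adjusted one, and 3 of the 10 (Cspg4, Abcc9 and Notch3) were lower in set 1 than in set 2 within the double knockout. The part of these markers in the levels of Rgs4 and Rgs5 was not tested.

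**Figure D3:**
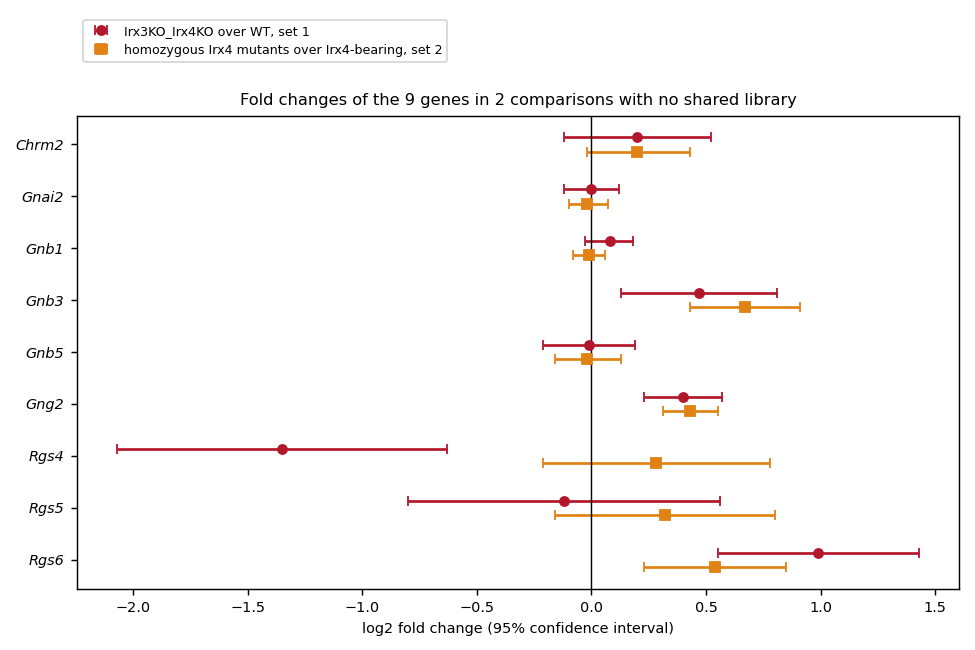
Log2 fold change with 95% confidence interval of each gene in Irx3KO_Irx4KO over WT (set 1, circles) and in homozygous Irx4 mutants over Irx4-bearing ventricles (set 2, squares), which have no library in common. Gng2 is at 0.40 and 0.43 and Gnai2, Gnb1 and Gnb5 are close to 0 in both, while Rgs4 is at -1.35 in set 1 and 0.28 in set 2.

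In the remaining comparisons no member passed edgeR's test. At the adjusted threshold, 0.0241% of all genes passed in Irx3KO_Irx4KO against Irx4KO and 0.00602% in Irx3KO against Irx3het_Irx4het. The share was 0.012% in Irx4KO against Irx3het_Irx4het and 0.0241% when pooled by Irx3. Members with an unadjusted p under 0.05 in edgeR numbered 2, 1, 2 and 2 of 9 in that order. The share of all genes at that unadjusted level was not counted, so these numbers cannot be read as an excess. DESeq2 called 0 members in each of these 4 comparisons. The single mutants and the double heterozygote can be set beside WT only across sets, by way of the double knockout present in both, which assumes that the set shifts all genotypes alike. On that footing Gng2 stood 0.35 ± 0.11 above WT in Irx4KO (log2 ± SE, adjusted p = 0.53) and -0.21 ± 0.11 in Irx3KO. Chrm2 stood at 0.54 ± 0.21 in Irx4KO (adjusted p = 0.69). Rgs4 had the largest values, at -1.43 ± 0.47 in Irx3KO (adjusted p = 0.88), -0.83 ± 0.47 in Irx4KO (0.86) and -1.32 ± 0.47 in Irx3het_Irx4het (0.69). Rgs6 stood 0.72 ± 0.29 above WT in Irx4KO and 0.16 ± 0.29 in Irx3KO. These Rgs6 values hold its set 1 difference from WT, which was known when the list was made, so they are given with no test. Of the 8 members other than Rgs6, 0 passed edgeR's test in these bridged comparisons or for the interaction of the mutations. Of all genes, 0.0181% passed for Irx3KO, 0.0422% for Irx4KO, 0.012% for Irx3het_Irx4het and 0% for the interaction. An unadjusted p under 0.05 in edgeR was met by Rgs4 in Irx3KO and Irx3het_Irx4het, Chrm2 and Gng2 in Irx4KO, and Gnb3 for the interaction. The share of all genes at that unadjusted level was not counted. DESeq2 called 0 of these 8 members.

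The wider pathway was read from lists of receptors, G-protein subunits, regulators, channels, cyclases, kinases and chaperones, 103 genes with the 9 members included, of which 92 were tested. In Irx3KO_Irx4KO against WT, of the 83 that are not members 1 rose (Gnao1) and 1 fell (Rgs18), which is 2.41% beside 1.44% of all genes. Gnao1, the alpha subunit of Go and a second target of the M2 receptor, had 57.0, 47.1 and 51.4 CPM in Irx3KO_Irx4KO 5, 7 and 10, against 42.2, 44.3 and 39.1 CPM in WT 1, 2 and 3. Its rise of 0.31 ± 0.074 (log2 ± SE, adjusted p = 0.046) had no counterpart in the pooled Irx4 comparison, where it differed by -0.04 ± 0.052 (adjusted p = 0.89), although the difference between these comparisons was not tested. Rgs18, a regulator known from platelets and their precursors, fell by 1.90 on the log2 scale (SE 0.43, adjusted p = 0.035) at 0.0478 to 0.0817 CPM in Irx3KO_Irx4KO against 0.174 to 0.310 CPM in WT, which amounts to 2 to 13 estimated counts in these libraries. Macrophage and leukocyte markers summed to 65.3 to 100 CPM in Irx3KO_Irx4KO and 88.3 to 163 CPM in WT there, and their part in the Rgs18 level was not tested.

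In the pooled Irx4 comparison 1 of these 83 genes rose (Adcy2) and 0 fell, which is 1.20% beside 0.813% of all genes. Adcy2, an adenylyl cyclase that beta-gamma dimers are known to stimulate, ran from 1.89 to 2.45 CPM in the homozygous Irx4 mutants and from 0.679 to 1.65 CPM in the others, a rise of 0.80 ± 0.18 (log2 ± SE, adjusted p = 0.039). Against WT it stood at 0.30 ± 0.24 in Irx3KO_Irx4KO (adjusted p = 0.63). Adcy6, an abundant cardiac cyclase, did not pass in either comparison and averaged 406 to 452 CPM over the genotypes and sets. The channel genes at the end of the pathway did not pass either. Kcnj3 averaged 36.2 ± 5.15 CPM in Irx3KO_Irx4KO and 27.8 ± 5.82 CPM in WT (SD, n = 3 each), a log2 fold change of 0.38 ± 0.14 (SE; adjusted p = 0.21), and Kcnj5 differed by -0.13 ± 0.15 (adjusted p = 0.78). Ache, which encodes the enzyme that breaks acetylcholine down, averaged 6.58 ± 0.981 CPM in Irx3KO_Irx4KO, 11.1 ± 1.32 CPM in Irx3KO, 6.93 ± 1.38 CPM in Irx4KO and 8.96 ± 1.78 CPM in Irx3het_Irx4het of set 2, and the pooled Irx4 difference of -0.57 ± 0.14 had an adjusted p of 0.071. The median log2 fold change over the 92 genes was 0.00 against WT and 0.01 in the pooled Irx4 comparison, beside 0.01 and 0.00 over all genes tested.

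**Figure D4:**
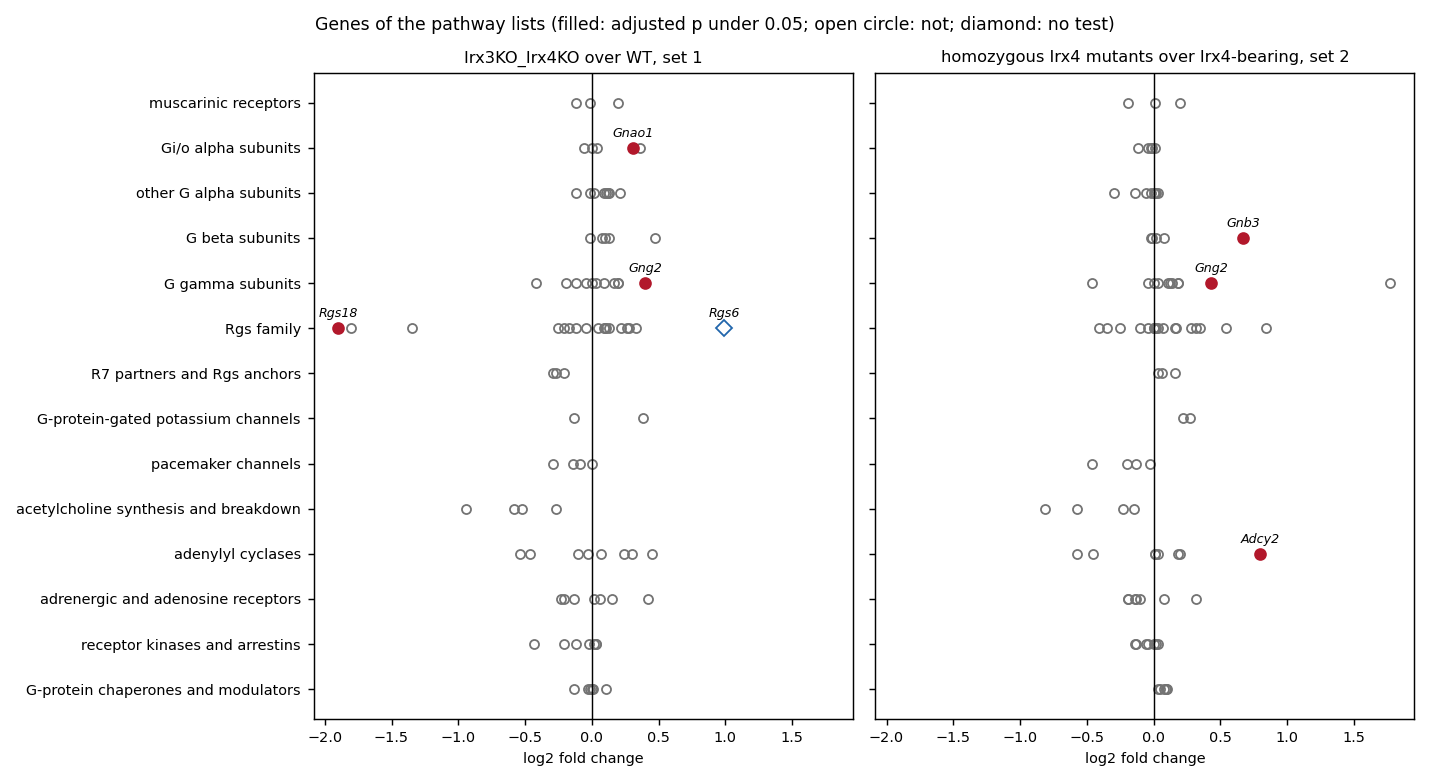
Log2 fold change of each tested pathway gene (1 circle a gene, 1 row a list) in Irx3KO_Irx4KO over WT (left) and in homozygous Irx4 mutants over Irx4-bearing ventricles (right); filled circles had an adjusted p under 0.05, open circles did not, and the diamond is Rgs6, given with no test. Gng2 is filled on both sides, Gnao1 and Rgs18 on the left only, Gnb3 and Adcy2 on the right only; Adcy8, listed at 0 in every Irx3KO_Irx4KO library of set 1, is left out.

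The genes whose levels ran most like those of the members were found by Pearson's r of log2 CPM over the 18 libraries after subtracting each set's mean, among 10894 genes. The libraries share genotype and depth, so these values describe likeness only. For Gng2 they were Gata6 and Mylk3 (r = 0.92 each), and for Gnb3 they were Ndufa13 and Pin4 (0.89 each). For Rgs6 the nearest 5 were Thbs4 (0.88), Cap2 (0.86), Mical2 (0.84), Adam33 (0.83) and Serf1 (0.83). Chrm2 ran most like Ripor2 and Ugp2 (0.90 each), Gnb5 like Dnttip1 (0.87) and Arvcf (0.84), Gnai2 like Apc2 (0.90) and Tnfaip8l1 (0.85), and Gnb1 like Aars (0.96) and Erh (0.93). Rgs4 ran most like Stom (0.91) and Notch3 (0.90), and Rgs5 like Heyl (0.92) and Ltbp2 (0.89).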

How the data were processed

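The authors deposited, per library, kallisto tables of estimated counts and TPM per Ensembl transcript. Kallisto 0.42.2 and the build mm9 come from the submitters' processing notes. No label gives the transcript release or whether strand was used. By Ensembl ID, 78002 of 88943 transcripts (87.70%) matched GENCODE M21 and were summed over 28537 genes, and 6.43% to 6.78% of estimated counts per library had no match. Summed counts were rounded and fitted with edgeR 4.0.16 (TMM scaling, filterByExpr, robust quasi-likelihood) in 1 model of all 18 libraries with 6 groups, each genotype and, for Irx3KO_Irx4KO, each set. P-values were adjusted by Benjamini-Hochberg over 16600 genes, with a threshold of 0.05. CPM are TMM-scaled. TPM, which the authors deposited scaled by transcript length, were summed per gene. The members and lists were chosen with earlier results of these data known, so the p-values printed for members are no independent support. Named are the 9 members, pathway genes past the threshold, and for each member the 2 most similar genes (5 for Rgs6). No pair of libraries of a genotype agreed within counting noise (chi-square per gene at least 6.31 over 27 pairs). Tested on simulated counts for Irx3KO_Irx4KO against WT over 16263 genes, the fit recovered 82% of changes of 1 and 16% of changes of 0.5 on the log2 scale. The simulated counts had 1 fixed dispersion for all genes and no difference between sets. The recovery of genes with a wider spread, such as Rgs4 and Rgs5, is therefore not given by it. The alternatives were RLE scaling, DESeq2 1.42.0, other filters, counts rebuilt from TPM, only the libraries of a set, no set term, a sex covariate (Y-linked genes were low in 3 libraries), the replicate number as a block, and each library left out.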

Additional observations from a re-analysis of the deposited data

Results flagged for a closer look

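Among the 6 Irx3KO_Irx4KO libraries, which span both sets, library 5 stood far from the rest for a pair of the 9 genes. Its Chrm2 level was 31.1 CPM, the lowest of the 6, while the others had 51.0 to 58.4 CPM. Its Gnb5 level was 53.3 CPM, the highest of the 6, while the others had 36.7 to 41.0 CPM. A test of this kind marks about 1 in 20 groups by chance, and 9 genes were looked at in this genotype. Library 5 also stood apart from libraries 7 and 10 over all genes. Its chi-square per gene was 63.8 against library 7 and 61.5 against library 10, beside 27.7 between libraries 7 and 10. Its correlation with transcript length was the lowest of all libraries (rho -0.580), but the other set 1 libraries were near, at -0.519 to -0.354. The part of this wider deviation in the Chrm2 and Gnb5 levels was not tested. Chrm2 against WT passed the threshold once this library was left out (log2 fold change 0.42, adjusted p = 0.019; it was 0.03 without library 7), and Gnb5 against WT then stood at -0.15.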

How the results depend on the processing

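Over the 126 member values (9 genes in 14 comparisons) and their 3294 alternatives, 3231 kept their side of the threshold, 46 lost the threshold and 17 gained it. These values include Rgs6 in Irx3KO_Irx4KO against WT, described above with no test, which holds 5 of the 46 losses. They also include Rgs6 in the bridged comparisons and the interaction, which hold its known difference from WT. The sign turned in 93 alternatives of 37 member values, of which 0 were past the threshold before or after. Among these, Rgs5 in Irx3KO_Irx4KO against WT was -0.12, and 0.04 without Irx3KO_Irx4KO 5 and 0.10 without WT 3, and Rgs4 in Irx4KO against WT, bridged, was -0.83, and 0.34 with no set term. In Irx3KO_Irx4KO against WT, 1 of the 8 members other than Rgs6 passed, Gng2, beside 1.44% of all genes. DESeq2 called Gng2 and Rgs4 of these 8, and 0 passed with counts rebuilt from TPM or with only the set 1 libraries. Of the 26 alternatives, Gng2 lost the threshold in 5, Rgs4 gained it in 3 and Chrm2 gained it in 1. Against Irx3KO the number of members past the threshold was 2, and 3 in DESeq2 or with no set term, 0 from TPM, 1 with the replicate number as a block, and 1 to 2 with 1 library left out. Against Irx3het_Irx4het it was 1, and 0 with RLE scaling, a filter of 1 CPM in 3 libraries, TPM, the sex covariate or the replicate block, and 0 to 1 with 1 library left out. For Irx3KO against Irx4KO it was 1, and 0 from TPM, 2 with only set 2 libraries, 0 with the replicate block, and 1 to 2 with 1 library left out. The pooled Irx4 comparison had 2, and 3 in DESeq2 and 1 from TPM. The double knockouts of set 1 against set 2 had 1, and 0 to 2 with 1 library left out. The bridged comparisons had 0, and 4 with no set term and 0 to 1 with 1 library left out. Same-numbered set 2 libraries of different genotypes deviated with correlations of -0.45 to 0.18, and differently numbered ones with -0.32 to 0.47. These deviations are taken from means of 3 libraries, so they cannot decide whether the replicate numbers pair the libraries. The block changed no other count of members. The cause of these changes was not tested. Over all genes, Irx3KO_Irx4KO against WT had 239 calls, and 594 in DESeq2, 145 from TPM, 105 with no set term, 16 with only set 1 libraries and 67 to 576 with 1 library left out. The pooled Irx4 comparison had 135, and 346 in DESeq2, 348 with only set 2 libraries, 87 from TPM and 56 to 313 with 1 library left out. Irx3KO_Irx4KO against Irx3KO had 63, and 201 in DESeq2, 179 with only set 2 libraries, 284 with no set term, 29 from TPM, 36 with the sex covariate, 38 with the block and 15 to 143 with 1 library left out. Against Irx3het_Irx4het it had 15, and 184, 173 and 317 in the first 3 of these settings, 34 with the block and 4 to 102 with 1 library left out. Irx3KO against Irx4KO had 48, and 216 in DESeq2, 145 with only set 2 libraries, 23 with no set term, 26 from TPM, 14 with the block and 12 to 119 with 1 library left out. DESeq2 called 26, 12, 32 and 56 genes where edgeR called 4 (Irx3KO_Irx4KO against Irx4KO), 1 (Irx3KO against Irx3het_Irx4het), 2 (Irx4KO against Irx3het_Irx4het) and 4 (pooled by Irx3). It called 16, 90, 44 and 11 where edgeR called 3, 7, 2 and 0 in the bridged comparisons and the interaction, which with no set term had 68, 342, 570 and 2459. Double knockouts of set 1 against set 2 had 3119, and 1693 to 3885 with 1 library left out. Of the pathway genes, DESeq2 called 7 where edgeR called 3 in the pooled Irx4 comparison, 5 where edgeR called 2 against Irx3KO, 3 where edgeR called 1 against Irx3het_Irx4het (0 with RLE scaling), and 4 where edgeR called 1 in Irx3KO against Irx4KO. Rgs4, Gnb3 and Rgs6 had the fewest counts of the members, and the part of depth in their spread was not tested.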
